A study of Homo sapiens with 4 samples.

Results

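The genes described here are the chromatin and RNA dioxygenases that depend on 2-oxoglutarate, drawn from the 2-oxoglutarate oxygenases other than the hydroxylases of HIF and collagen. They were taken by gene symbol from a fixed list, and all 45 were found among the 58243 genes of the RNA-seq tables, each under 1 Ensembl identifier. Of these tables, 19658 genes are protein-coding. The study used HK2, an immortalized line of human proximal tubule cells from the kidney. All 4 samples were treated with 50 μM FG-4592 (roxadustat), for 6 h according to the methods of the study. They were 2 HIF1α ChIP-seq replicates, given as lists of peak positions, and 2 RNA-seq replicates, given as FPKM per transcript. No untreated library was analysed here: all values are levels and positions under treatment, and no response to FG-4592 can be read from them. The labels do not say whether replicates came from separate cultures.

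Dioxygenases of this family use oxygen, iron and 2-oxoglutarate to hydroxylate a substrate, and many of them remove methyl groups in this way, from histones, DNA or RNA. FG-4592 is a 2-oxoglutarate analogue that inhibits the prolyl hydroxylases which mark HIFα for degradation. Stabilized HIF1α, with its partner ARNT, binds DNA at the core sequence of the hypoxia response element, and several histone demethylase genes, *KDM3A*, *KDM4B* and *KDM4C* among them, are known HIF targets.

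The question asked of the ChIP-seq was which of these genes have HIF1α at a start site. A promoter peak was a peak with at least 1 bp within 1 kb of any annotated transcript start of the gene, on GRCh37. In ChIP replicate 1, 11 of the 45 genes (24.4%) had such a peak, beside 5.46% of all protein-coding genes and 8.68% of the protein-coding genes at FPKM 1 or more in both RNA-seq libraries. They were *KDM2A*, *KDM2B*, *KDM3A*, *KDM4B*, *KDM4C*, *KDM5C*, *JARID2*, *TET2*, *ALKBH5*, *ASPH* and *OGFOD2*. In ChIP replicate 2, 13 genes (28.9%) had a promoter peak, beside 13.9% of protein-coding genes and 20.2% of those at FPKM 1 or more. That count was 6 at the start farthest upstream in each gene, beside 5.86% of protein-coding genes, and 4 with only peaks under 90% exon bases, beside 2.62%. In each of the replicates 6 genes (13.3%) had a promoter peak, beside 1.75% of protein-coding genes and 2.91% of those at FPKM 1 or more. The genes with a peak in each replicate were *KDM2A*, *KDM2B*, *KDM4C*, *KDM5C*, *ALKBH5* and *ASPH*. The 3 HIF targets named above were among the 11 of replicate 1, and 1 of them, *KDM4C*, among the 13 of replicate 2. These 3 were named with earlier results of these data known, so the match is a description and no support for either list.

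The hypoxia response element core was sought as ACGTG or GCGTG, which read CACGT or CACGC on the other strand. All 11 replicate 1 promoter peaks held it somewhere in the peak, a count that was not made over all peaks. Within 100 bp of the peak centre, 9 of the 11 held it. The same window held it in 86.1% of all replicate 1 peaks and in 92.1% of those at promoters of protein-coding genes. Equally wide windows placed 1 kb away on both sides held it in 28.7% of cases over all replicate 1 peaks, and in 3 of 11 and 4 of 11 cases for the dioxygenase genes. A match to these letters is a description of the window. The match nearest the centre is shown for 10 of the 11 peaks, all but that of *ASPH*, since these are the sequences under the peaks, with the core in capitals and 12 bases on either side, read 5′ to 3′ on the strand that carries the core (GRCh37).
KDM2A, chr11:66886596-66886624, minus strand, intergenic: tctcccgggcgcGCGTGaacgcgcacgcg
KDM2B, chr12:122018371-122018399, minus strand, intron: gcggcggcgcctGCGTGcagaggcgcact
KDM3A, chr2:86667951-86667979, minus strand, UTR: gcagggaagagaACGTGcggtttcaggcg
KDM4B, chr19:4968626-4968654, minus strand, intergenic: cggcggctgagtACGTGagacccagcaca
KDM4C, chr9:6757667-6757695, plus strand, UTR: aggacgtgtggcGCGTGgactacatcagg
KDM5C, chrX:53254639-53254667, minus strand, intergenic: actggcctttaaACGTGcaccgccggtcc
JARID2, chr6:15245567-15245595, minus strand, intergenic: tggacgtgtcccGCGTGcgacactgctag
TET2, chr4:106067913-106067941, minus strand, UTR: ccgagggggcggACGTGacttgcatgcga
ALKBH5, chr17:18086369-18086397, plus strand, intron of another gene: gccgtcaccgggACGTGactcgtgaaacg
OGFOD2, chr12:123459851-123459879, plus strand, coding exon: ccgataacttgtACGTGgcgcgctatggg
The 2 peaks without a core within 100 bp of the centre were those of *KDM2A* and *KDM3A*, whose nearest cores lay 167 and 127 bp from it. In RefSeq promoters of GRCh38.p14, each 300 bases long, 29 of the 41 dioxygenase genes matched by symbol (70.7%) held the core, beside 48.4% of all promoters in that table. The dioxygenase genes were counted with a single promoter per gene. All 35116 promoters of the table were counted, without limit to protein-coding or expressed genes. The shares are therefore of unlike sets, and no excess can be read from them.

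*KDM4B* and *JARID2* were the 2 genes whose replicate 1 promoter peak held no exon base. The *KDM4B* peak, chr19:4968404-4968855, lay 269 bp upstream of the nearest start, and the *JARID2* peak, chr6:15245346-15245780, lay 520 bp upstream. The central 201 bases of each are shown on the plus strand, which is also the strand of both genes, with every core in capitals.
KDM4B, chr19:4968529-4968729: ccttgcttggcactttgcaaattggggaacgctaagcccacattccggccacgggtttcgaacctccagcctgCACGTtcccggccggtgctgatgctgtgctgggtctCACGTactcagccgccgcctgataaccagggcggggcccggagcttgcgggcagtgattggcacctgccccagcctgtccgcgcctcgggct
JARID2, chr6:15245463-15245663: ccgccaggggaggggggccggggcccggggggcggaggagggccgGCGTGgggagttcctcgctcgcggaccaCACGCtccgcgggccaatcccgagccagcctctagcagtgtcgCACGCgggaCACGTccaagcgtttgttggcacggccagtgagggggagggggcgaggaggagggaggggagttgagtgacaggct
The *KDM4B* stretch held 2 cores and the *JARID2* stretch 4. Neither gene had a promoter peak in replicate 2, where the nearest peaks lay 4056 and 4298 bp from a start.

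The other 9 replicate 1 promoter peaks crossed an annotated start site. The peak of *KDM3A*, a demethylase of H3K9, was the widest at 729 bp (chr2:86667728-86668456), with 51.9% of its bases in exons and 4 cores, and the nearest replicate 2 peak was 3128 bp from a start. The *KDM4C* peak, chr9:6757486-6757939, overlapped the replicate 2 peak chr9:6757577-6757829, and the core nearest the centre was the same in both, 25 bp downstream of the start. *KDM2A* (chr11:66886547-66887007) and *ASPH* (chr8:62627159-62627611) were the other genes with overlapping peaks in both replicates. The *ASPH* peak held 5 cores, the nearest 5 bp from its centre. These 3 genes are thus the ones at which both replicates marked the same promoter bases. How often peaks overlap over all genes with a promoter peak in each replicate was not measured.

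At the 3 other genes with a promoter peak in each replicate, the peaks did not overlap, a count likewise without a share over all genes. Those of *KDM5C*, an X-linked H3K4 demethylase, were 58 bp apart (chrX:53254411-53254724 and chrX:53253947-53254353). Those of *ALKBH5*, which removes N6-methyladenosine from RNA, were 511 bp apart (chr17:18086173-18086612 and chr17:18087123-18088170). In *KDM2B*, which recruits a Polycomb complex to CpG islands, they lay 70615 bp apart at different start sites, so they count as the same gene but not the same promoter. *TET2* (chr4:106067573-106068102) and *OGFOD2* (chr12:123459698-123459936) had a promoter peak in replicate 1 only. The *OGFOD2* peak also lay within 1 kb of a start of *ABCB9*, and cannot be assigned to either gene.

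The 2 peak lists differed in kind. Replicate 1 held 1689 peaks with 32.9% of their bases in exons, and replicate 2 held 16953 peaks with 84.5%. Inside the dioxygenase genes, replicate 1 had 12 peaks in 10 genes with 53.7% of their bases in exons, and replicate 2 had 65 peaks in 25 genes with 97.0%. Of the 41 genes at FPKM 1 or more in both libraries, 10 had a replicate 1 peak inside the gene, beside 8.97% of such protein-coding genes, and 24 had a replicate 2 peak, beside 53.6%. Of the 19 promoter peaks in replicate 2, none was free of exon bases, and the median share of exon bases was 100%. Those 24 genes had a median FPKM of 11.97 and the others of the 41 had 6.96, beside 15.4 and 7.17 for protein-coding genes with and without such a peak. Replicate 2 promoter peaks therefore stand beside a list that follows exons, and the part of this in the promoter counts was not tested.

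The 7 genes with a promoter peak in replicate 2 only were *KDM3B*, *JMJD1C*, *KDM5A*, *KDM5B*, *JMJD8*, *ALKBH6* and *FTO*. The *JMJD8* peak lay nearer a start of *STUB1* on the opposite strand, and cannot be assigned to either gene. *KDM5B*, an H3K4 demethylase, had 5 such peaks, at start sites spread along the gene, of which 4 lay wholly in exons. For the promoter peak nearest a start, the core was within 100 bp of the centre in 5 of the 13 genes in replicate 2, beside 26.6% of all replicate 2 peaks and 35.3% of those at promoters of protein-coding genes. The replicate 2 peaks with a core were those of *KDM4C*, *KDM5C*, *JMJD8*, *ALKBH5* and *ASPH*. In *KDM2A* neither replicate 2 promoter peak held a core, the peak that overlaps replicate 1 included.

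*KDM6B*, an H3K27 demethylase, had peaks just outside the 1 kb limit, and was singled out after they were seen. Its peaks in both replicates, chr17:7738790-7739282 and chr17:7738889-7739174, overlapped in an intron, 1255 and 1354 bp from the nearest start. The replicate 1 peak held 5 cores, the nearest 4 bp from its centre, shown here on the minus strand because both replicates cover it.
KDM6B, chr17:7739026-7739054, intron: gtgtgggagtgcACGTGcgggtcccaggc
Inside the limit, *JARID2* had the most distant of the replicate 1 promoter peaks at 520 bp. Beyond the limit in replicate 1, *KDM5B* had a peak 2808 bp and *HR* a peak 8997 bp from a start. The *HR* peak lay within 1 kb of a start of *NUDT18*, the nearer gene. In all, 14 genes had a replicate 1 peak within 10 kb of a start, beside 8.08% of protein-coding genes, and 25 had none within 100 kb, beside 74.7%.

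**Figure D1:**
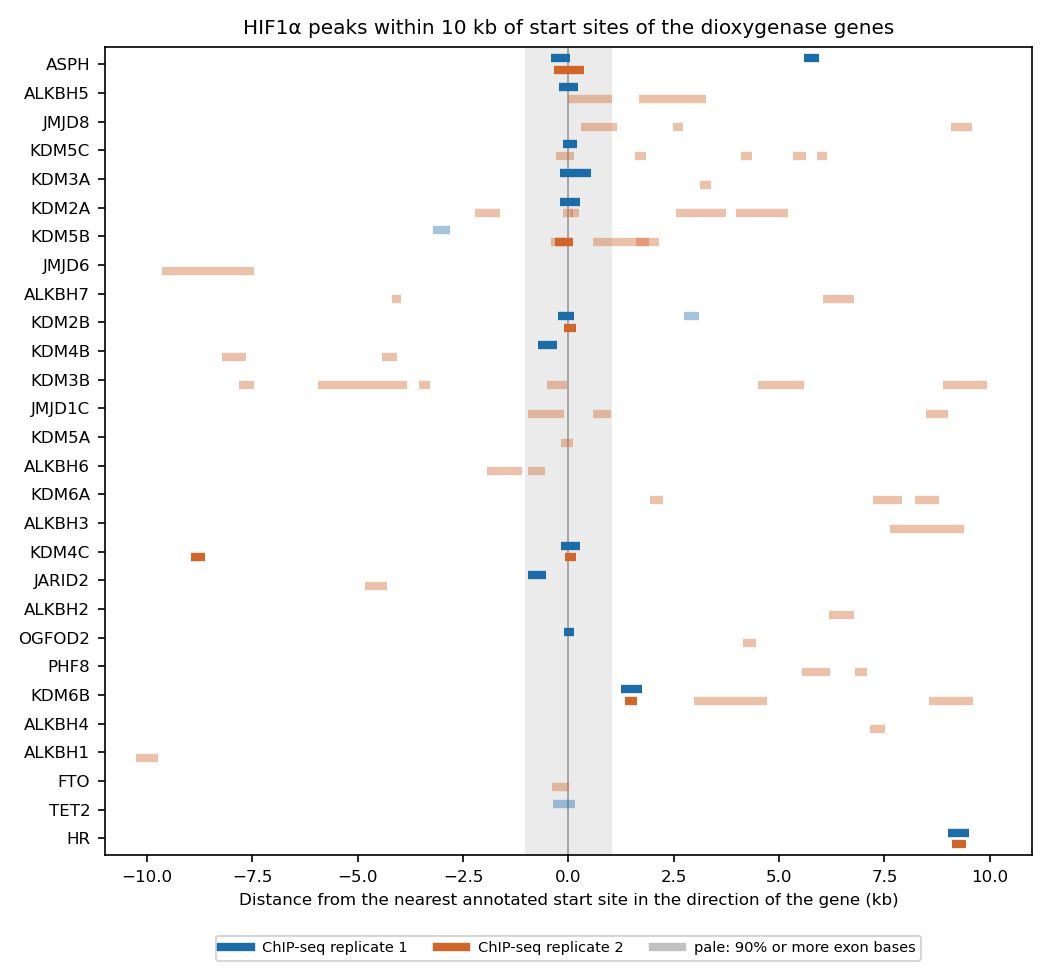
HIF1α peaks within 10 kb of an annotated start site, for each dioxygenase gene that has any, plotted as distance in kb from the nearest start in the direction of the gene (blue, ChIP-seq replicate 1; orange, replicate 2; pale, 90% or more of the bases in exons; grey band, 1 kb on either side). Genes run from the highest mean FPKM at the top; the replicate 1 peaks of 11 genes touch the band, and those of *KDM6B* lie just beyond it in both replicates.

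The question asked of the RNA-seq was which of the dioxygenase genes these cells express, and at what level. FPKM, which corrects for transcript length and library size, was added up per gene from its transcripts, and can be compared between genes. In bulk RNA, fewer expressing cells and less RNA per cell cannot be told apart. Depth, as coverage multiplied by transcript length, was 4442 Mb in replicate 1 and 4202 Mb in replicate 2. At FPKM 1 or more in both libraries were 41 of the 45 genes, beside 22.5% of all genes and 58.8% of protein-coding genes. Their median FPKM over all 45 was 8.39 in replicate 1 and 7.99 in replicate 2, beside 3.31 and 3.36 for protein-coding genes. Against protein-coding genes at mean FPKM 1 or more, whose median was 10.8, 18 of the 45 were higher. The set is therefore nearly all expressed, and mostly at moderate levels.

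**Figure D2:**
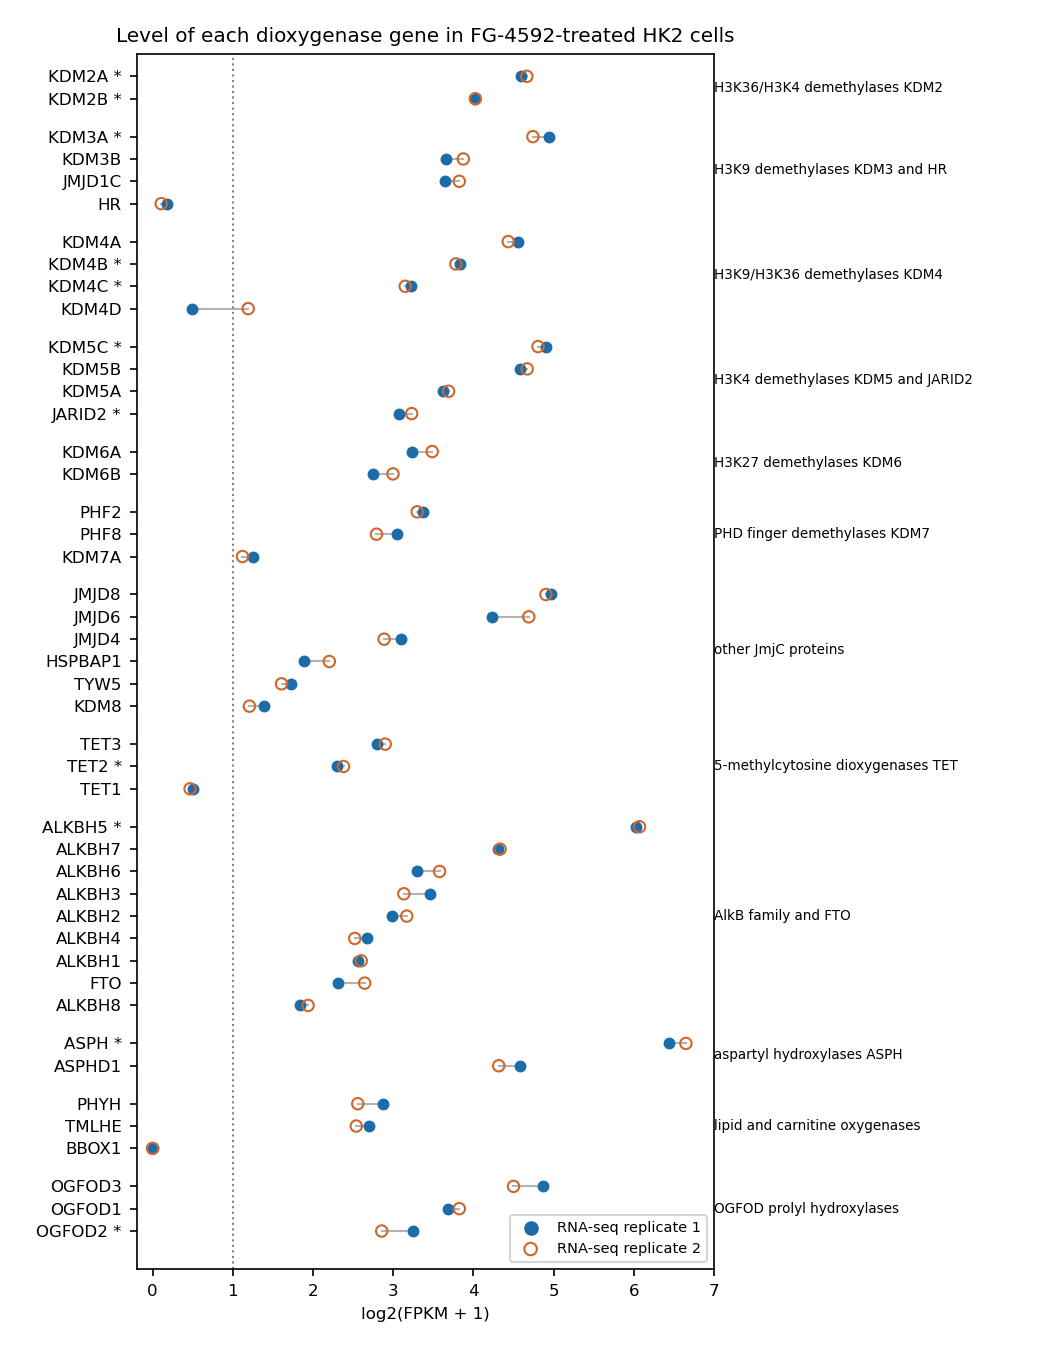
Gene total of each of the 45 genes as log2(FPKM + 1) in RNA-seq replicate 1 (filled) and replicate 2 (open), grouped by role; asterisks mark a promoter peak in ChIP replicate 1 and the dotted line is FPKM 1. *ASPH* and *ALKBH5* lie to the right of all others in both libraries, and *BBOX1*, *HR*, *TET1* and *KDM4D* lie at the left.

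*ASPH* (ENSG00000198363), which encodes the hydroxylase of aspartate and asparagine in EGF-like domains and shorter forms without it, had the highest gene total, 85.9 in replicate 1 and 99.4 in replicate 2. *ALKBH5* (ENSG00000091542) followed at 64.1 and 66.2. By canonical transcript the order differed between libraries, with the hydroxylase form of *ASPH* at 44.2 and 50.3 and *ALKBH5* at 63.6 and 46.8. By coverage, exons 14 to 25 of *ASPH* (at most 314 and 291 per base) were below every exon of *ALKBH5* (at least 344 and 296). The gene totals of this pair made up 24.8% and 26.8% of the summed FPKM of the 45 genes. Next came *JMJD8* at 30.4 and 28.9, *KDM5C* at 28.9 and 26.98, and *KDM3A* (ENSG00000115548) at 29.7 and 25.8. Over the pair of libraries, the range of *KDM5C* overlapped those of *JMJD8* and *KDM3A*. Of the 44 neighbouring pairs in the order of mean level, 33 had overlapping ranges, so the order of gene totals is firm only where gaps are wide, as below *ASPH* and *ALKBH5*.

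The lowest were *BBOX1*, listed at 0 in both libraries, *HR* at 0.132 and 0.0778, *TET1* at 0.420 and 0.383, and *KDM4D* at 0.408 and 1.29, followed by *KDM7A* at 1.39 and 1.18. *BBOX1* makes carnitine from its butyrobetaine precursor and is a gene of kidney and liver. *TMLHE*, the enzyme at the start of the same pathway, stood at 5.51 and 4.82. *KDM4D* was the only gene at FPKM 1 or more in replicate 2 and below it in replicate 1.

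Among the demethylases of H3K9, *KDM3B* was at 11.6 and 13.7 and *JMJD1C* at 11.5 and 13.2, and *KDM3A* exceeded *KDM3B* by 2.56-fold and 1.89-fold and *JMJD1C* by 2.59-fold and 1.96-fold, in replicates 1 and 2. The KDM4 enzymes act on H3K9 and H3K36. *KDM4A* was at 22.6 and 20.6, *KDM4B* at 13.3 and 12.7 and *KDM4C* at 8.31 and 7.88, an order seen in both libraries without overlap. Of the 3 HIF targets named above, therefore, *KDM3A* was the most abundant and *KDM4C* the least.

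The H3K4 demethylases were led by *KDM5C* and *KDM5B* (23.0 and 24.5), with *KDM5A* lower at 11.3 and 11.9. *JARID2*, their relative without demethylase activity and a partner of the Polycomb methyltransferase, was at 7.38 and 8.39. Of the H3K27 demethylases, *KDM6A* was at 8.39 and 10.2 and *KDM6B* at 5.69 and 6.99, a ratio of 1.47 and 1.46. *KDM2A* and *KDM2B*, which demethylate H3K36 at CpG islands, were at 23.2 and 24.4 and at 15.3 and 15.3. In the KDM7 group, *PHF2* was at 9.31 and 8.85 and *PHF8* at 7.27 and 5.93, both well above *KDM7A*. By gene total, each of these families thus had at least 1 gene at FPKM 8 or more in both libraries.

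The TET enzymes oxidize 5-methylcytosine. *TET3* was the highest at 5.94 and 6.47, with *TET2* at 3.93 and 4.21, so that *TET3* exceeded *TET2* by 1.51-fold and 1.54-fold. *TET1* was below FPKM 1 in both libraries. The gene with a HIF1α promoter peak, *TET2*, was neither the highest nor the lowest of the 3.

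Of the 2 demethylases of N6-methyladenosine in RNA, *ALKBH5* exceeded *FTO* (3.98 and 5.25) by 16.1-fold and 12.6-fold in FPKM. Coverage by exon, examined after these values were seen, was less far apart. *FTO* had between 66.3 and 91.9 per base in exons 2 to 8 in replicate 1, and between 49.7 and 91.6 in replicate 2, but 7.71 and 2.63 in exon 1 and 4.61 and 2.66 over its last exon of 10180 bases. The 4 exons of *ALKBH5* had between 344 and 403 in replicate 1, and between 296 and 332 in replicate 2. *ALKBH5* was thus higher on either measure. The canonical *FTO* transcript, which includes the long last exon, held 46.0% and 23.1% of the FPKM of the gene. The effect of that exon on the fold was not tested. The other AlkB genes ran from *ALKBH7*, a mitochondrial protein, at 18.8 and 19.2, to *ALKBH8*, a tRNA-modifying enzyme, at 2.59 and 2.83. Between them lay *ALKBH6* at 8.83 and 10.9, *ALKBH3* at 9.98 and 7.77, *ALKBH2* at 6.92 and 7.99, *ALKBH4* at 5.40 and 4.74, and *ALKBH1* at 4.92 and 5.07. *ALKBH2* and *ALKBH3* repair alkylated bases in DNA. All 9 genes of this group were at FPKM 1 or more in both libraries, and only *ALKBH5* had a replicate 1 promoter peak. Of the OGFOD genes, *OGFOD3* was at 28.1 and 21.6, *OGFOD1*, which hydroxylates a ribosomal protein, at 11.8 and 13.2, and *OGFOD2* at 8.48 and 6.25. Among the remaining genes, *ASPHD1*, a relative of *ASPH*, was at 22.9 and 18.9, and *PHYH*, which hydroxylates phytanoyl-CoA in peroxisomes, at 6.31 and 4.89. Of the JmjC proteins outside the KDM families, *JMJD4*, which hydroxylates a translation release factor, was at 7.53 and 6.40, *HSPBAP1* at 2.69 and 3.61, the tRNA hydroxylase *TYW5* at 2.30 and 2.05, and the arginyl hydroxylase *KDM8* at 1.61 and 1.31. These 4 were below the median of the 45 genes, while *JMJD8* and *JMJD6* of the same group were above it.

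The 11 genes with a replicate 1 promoter peak were all at FPKM 1 or more in both libraries, and their mean FPKM ran from 4.07 for *TET2* to 92.7 for *ASPH*. Their median was 15.3, beside 8.17 for the 30 others at FPKM 1 or more in both libraries. Among protein-coding genes at FPKM 1 or more in both libraries, the medians were 15.3 with a replicate 1 promoter peak (n = 1004) and 10.7 without (n = 10563). Genes with a peak thus stood at about the level of other genes with a peak.

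The libraries were compared gene by gene as the difference in log2(FPKM + 1), replicate 2 minus replicate 1, over the 41 genes at mean FPKM 1 or more. Its median size was 0.16, beside 0.13 for all such genes and 0.12 for protein-coding ones, and 21 genes were higher in replicate 2 and 20 lower. Over all 45 genes, the largest differences were 0.70 for *KDM4D*, 0.46 for *JMJD6*, -0.39 for *OGFOD2*, -0.37 for *OGFOD3* and 0.33 for *FTO*. *JMJD6*, a lysyl hydroxylase of splicing proteins, was at 17.7 and 24.8. FPKM weights short transcripts more than their bases do, and the bases sequenced did not follow it in each gene. These bases are not corrected for depth, which was 4442 Mb in replicate 1 and 4202 Mb in replicate 2. They were 238 and 236 kb for *JMJD6*. For *FTO* they were 153 and 116 kb, the opposite direction to its FPKM and a larger relative drop than that in depth.

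**Figure D3:**
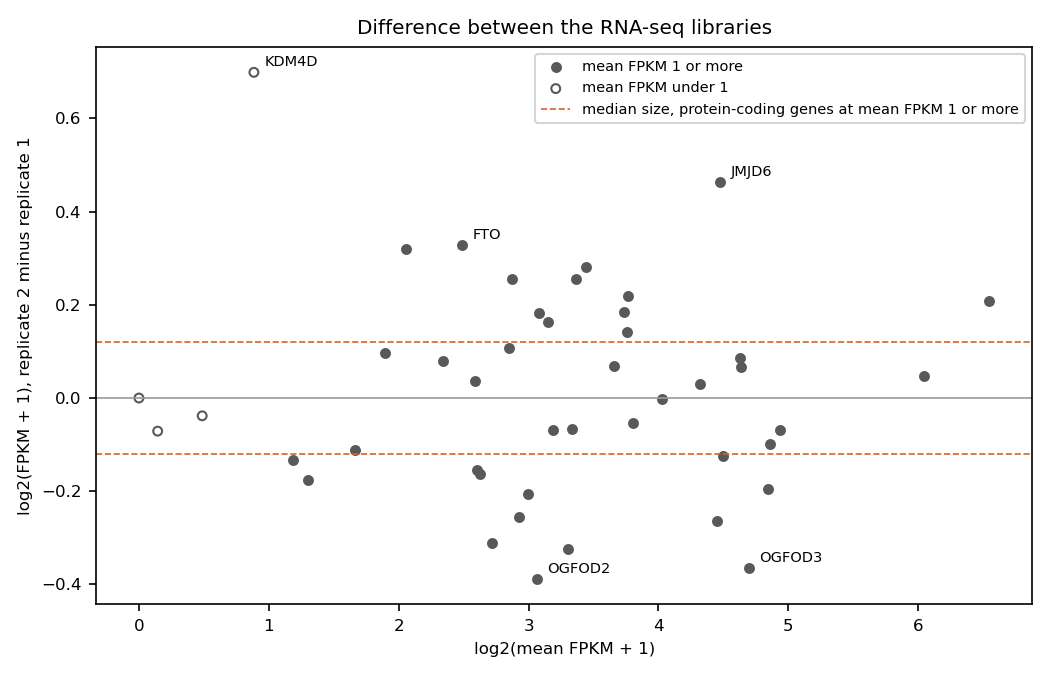
Difference in log2(FPKM + 1) between the RNA-seq libraries, replicate 2 minus replicate 1, against log2(mean FPKM + 1), with 1 point for each of the 45 genes (open, mean FPKM under 1); dashed lines mark the median size for protein-coding genes at mean FPKM 1 or more, 0.12. *KDM4D* and *JMJD6* are the points farthest above 0.

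The level of a gene does not say which of its transcripts were present. The 45 genes have 454 annotated transcripts in the tables, of which 442 could be matched by identifier to the GRCh37 annotation. Transcripts were called near full length when the annotation types them as protein-coding, which leaves out nonsense-mediated decay forms, and their coding sequence was at least 90% as long as that of the canonical transcript. The median share of FPKM in such transcripts was 76.4% in replicate 1 and 70.6% in replicate 2 over the 44 genes with any FPKM. It was under 50% in both libraries for 9 genes: *ALKBH2*, *ASPHD1*, *FTO*, *JMJD4*, *JMJD8*, *KDM2A*, *KDM2B*, *OGFOD2* and *OGFOD3*. Neither the medians nor this count were measured over all protein-coding genes, so they describe these genes only. For *JMJD4* the share, 25.9% and 27.9%, is a lower limit, since 62.3% and 55.5% of its FPKM was in transcripts that could not be matched. The share of *KDM6A*, 39.3% and 51.1%, is likewise a lower limit, with 45.2% and 31.3% of its FPKM unmatched.

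**Figure D4:**
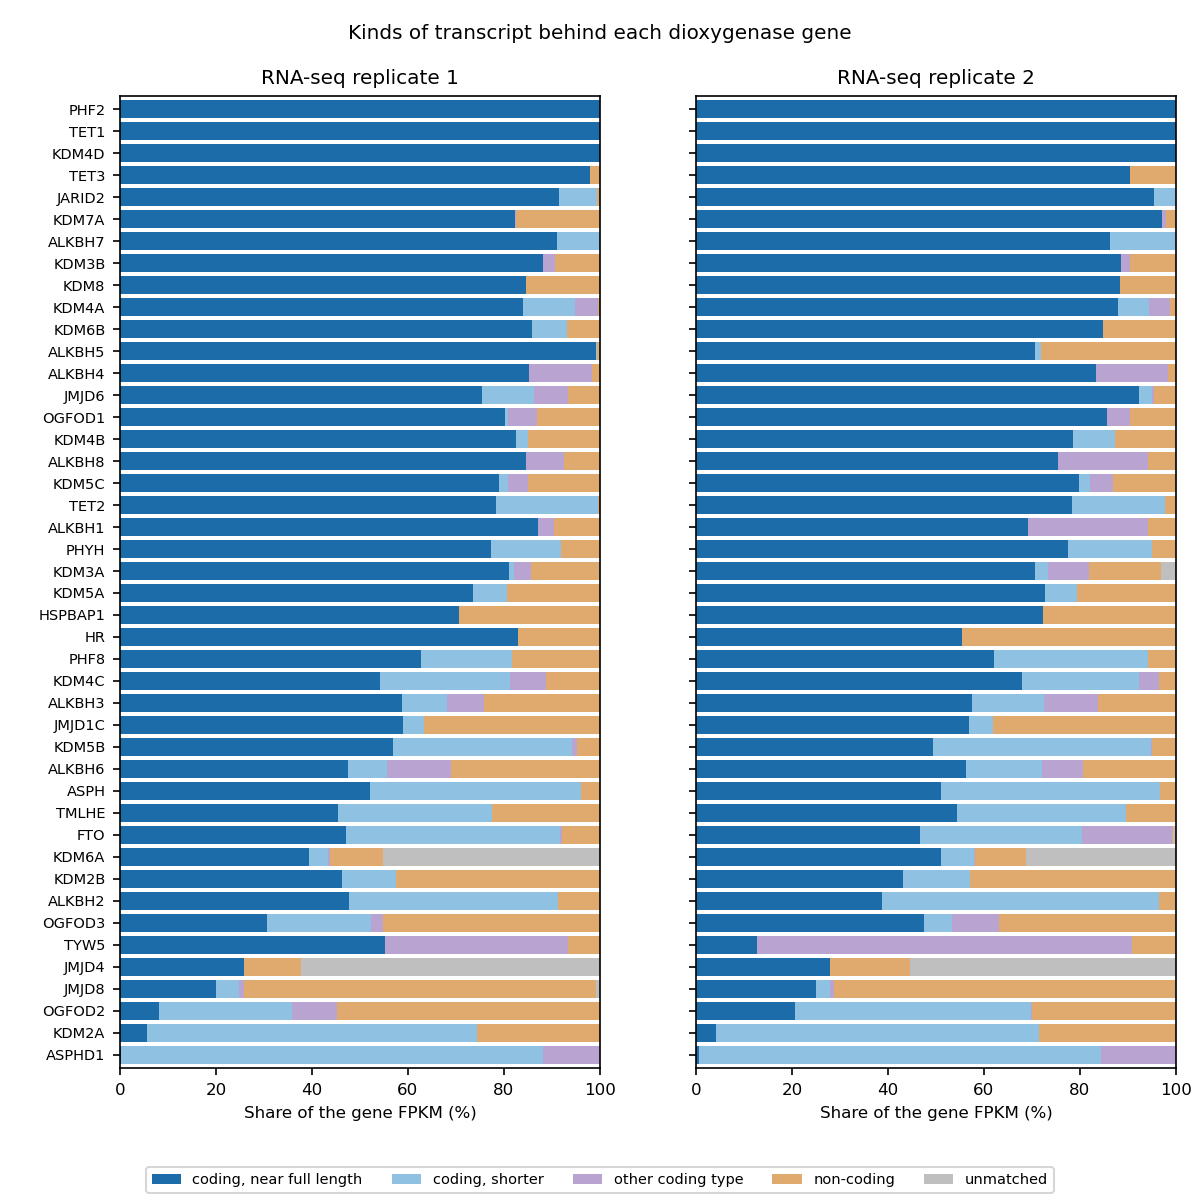
Share of each gene's FPKM (%) by kind of transcript in RNA-seq replicate 1 (left) and replicate 2 (right), for the 44 genes with any FPKM. Genes are ordered by the mean share in near full length coding transcripts, which is lowest in *ASPHD1* (0.279% and 0.710%) and *KDM2A* (5.63% and 4.27%). For *ASPHD1* this leaves out nonsense-mediated decay forms with the full coding length.

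*KDM2A* (ENSG00000173120) was led by ENST00000530342, a short form that lacks the N-terminal demethylase domain, at 14.1 and 14.4, or 60.6% and 59.2% of the gene. The canonical ENST00000529006 was at 0.897 and 0.870. Coverage by exon, summed over all transcripts, was examined after these values were seen. The canonical exons 1 to 12 had a mean coverage per base of 52.6 and 47.8, and exons 13 to 21, which hold all the exons that the short form shares with it, had 86.5 and 89.5. The ratio was 0.609 and 0.534. The next transcript of the gene, ENST00000526258, has no coding sequence in the annotation and was at 4.90 and 6.01. *KDM2B*, also examined after the values were seen, had a wider split along its canonical transcript: exons 2 to 12 had between 6.68 and 36 per base in replicate 1 and between 3.54 and 37.9 in replicate 2, with exon 1 at 0, while exons 13 to 21 had between 105 and 140, and between 81.2 and 132. Exons 22 and 23 had 37.7 and 87.1 in replicate 1, and 36.5 and 91.1 in replicate 2. The levels given above for *KDM2A* and *KDM2B* are gene totals. Near full length coding transcripts were at 1.31 and 1.04 in *KDM2A*, and at 7.06 and 6.59 in *KDM2B*. In *KDM2A* this was 5.63% and 4.27% of the gene, beside the coverage ratio of 0.609 and 0.534. The division of FPKM among transcripts that share exons was not tested against the coverage, so these transcript levels are uncertain.

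*ASPH* also encodes junctin and junctate, calcium-handling proteins of the endoplasmic reticulum that lack the hydroxylase domain at the C-terminus. The canonical hydroxylase transcript ENST00000379454 was at 44.2 and 50.3, or 51.5% and 50.6% of the gene. Coverage by exon was uneven along it. Exons 1 to 13 had a mean of 937 and 939, where single exons ranged between 380 and 1242 in replicate 1, or 428 and 1348 in replicate 2. Exons 14 to 25 had a mean of 180 and 202, and no exon of them passed 314 in replicate 1 or 291 in replicate 2. The 2 stretches did not overlap in either library, and the ratio of their means was 5.20 and 4.65. The boundary was chosen after these values were seen. Here too, the division of FPKM among transcripts was not tested against the coverage.

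**Figure D5:**
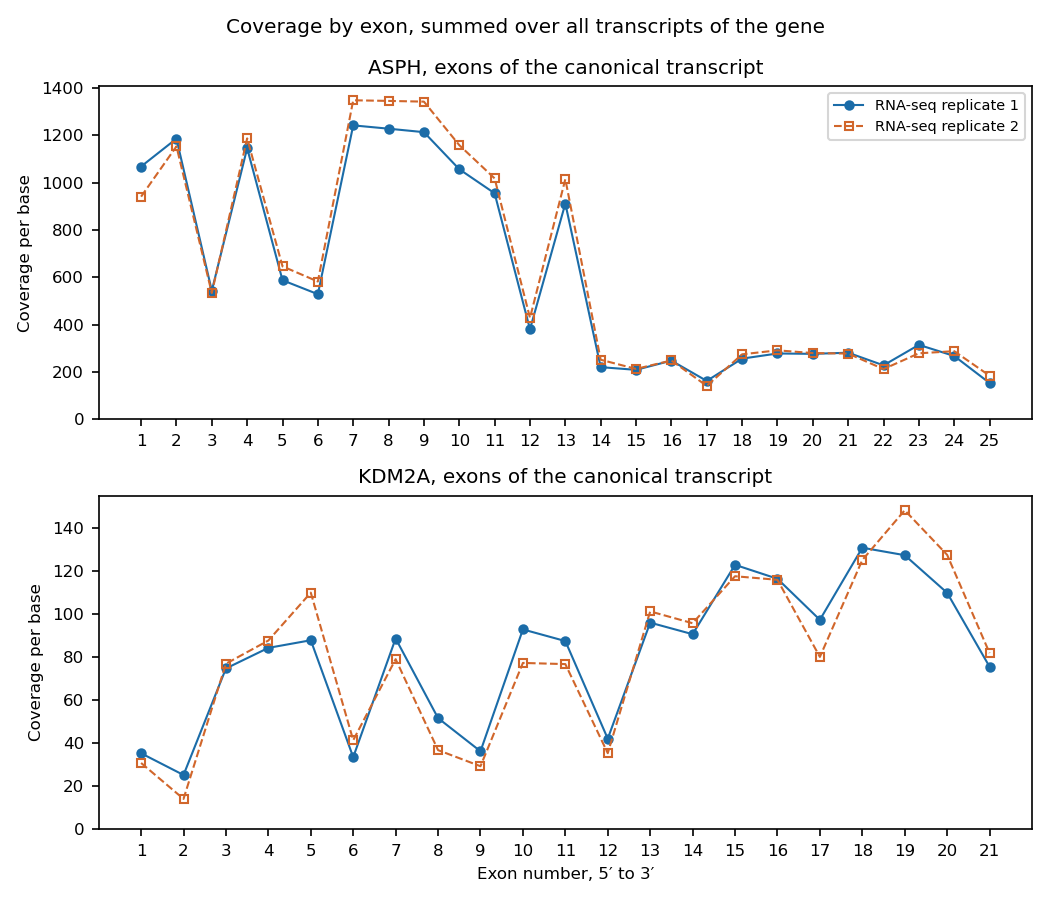
Coverage per base of each exon of the canonical transcript of *ASPH* (top, 25 exons) and *KDM2A* (bottom, 21 exons), summed over all transcripts of the gene, in RNA-seq replicate 1 (filled) and replicate 2 (open). In *ASPH* every exon from 14 on lies below every exon before it in both libraries; in *KDM2A* the coverage of exons 1 to 12 overlaps that of exons 13 to 21.

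*ASPHD1* was led by ENST00000483405, with a coding sequence of 327 nt against 1170 nt in the canonical form, at 71.0% and 68.5% of the gene. Its nonsense-mediated decay forms, ENST00000566693 and ENST00000414952, also have a coding sequence of 1170 nt. Together they held 11.8% and 15.7%, which the near full length share leaves out. *JMJD8* was the only gene led by a transcript without a coding sequence in both libraries, the retained intron form ENST00000568313 at 46.3% and 49.6%. In *JMJD8*, 37.5% of exon bases are shared with *STUB1* on the opposite strand. Whether the libraries kept the strand is not given in the sources used here, so reads of such pairs may not be separable. The same holds for *JMJD4*, which shares 53.8% with *SNAP47*, for *ALKBH4*, 25.6% with *ORAI2*, and for *OGFOD2*, 36.1% with *ABCB9*. In all, 11 of the genes share 5% or more of exon bases on the opposite strand, a count not made over all genes. *ASPHD1* is among them, with 14.4% shared with *KCTD13*. *KDM4A*, *ALKBH6* and *OGFOD2* share 40.2%, 25.1% and 67.6% of exon bases with another gene model on their own strand, and their levels are uncertain to that extent.

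The leading transcript differed between the libraries for 11 genes, and it held under 40% in at least 1 library for 11, which makes 15 genes in all. These counts were not made over all genes, so they cannot be read as particular to the dioxygenases. *KDM4B* was led by ENST00000611640 in replicate 1 (6.71 against 2.15 in replicate 2) and by ENST00000159111 in replicate 2 (5.98 against 2.56), although its total was nearly the same. In *TET2* the canonical ENST00000380013 held 70.2% in replicate 1 and 25.7% in replicate 2. These transcripts code for proteins of similar length, so the near full length share of *TET2* was 78.3% in both libraries. In *TYW5* the leader passed from the canonical transcript (55.2% in replicate 1) to ENST00000483328, a nonsense-mediated decay form, at 63.6% in replicate 2. The other 12 genes of the 15 were *ALKBH2*, *ALKBH6*, *ALKBH8*, *FTO*, *JMJD4*, *KDM2B*, *KDM4C*, *KDM4D*, *KDM6A*, *OGFOD2*, *OGFOD3* and *PHF8*. *ALKBH5* kept its leader, ENST00000399138, but a retained intron form, ENST00000490106, was at 0.438 in replicate 1 and 18.7 in replicate 2. With the largest transcript of each gene in place of the gene total, the median size of the log2 difference between libraries was 0.22 in place of 0.16.

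Other genes of the pathway gave the scale. The 14 HIF and collagen hydroxylases were all at FPKM 1 or more, with a median of 39.99, from *P4HA1* at 109 and 116 to *P4HTM* at 4.89 and 3.91, and 5 of them had a replicate 1 promoter peak: *EGLN1*, *HIF1AN*, *P4HA1*, *P4HA2* and *PLOD2*. The 17 enzymes that make or use 2-oxoglutarate, succinate, fumarate and 2-hydroxyglutarate had a median of 41.1, and only *GLUD1*, which converts glutamate to 2-oxoglutarate, at 91.4 and 90.1, had a replicate 1 promoter peak. The 22 genes of methyltransferases that oppose the demethylases, with subunits of their complexes such as *WTAP* and *EED*, had a median of 9.32. This was close to that of the dioxygenases. By mean FPKM they ran from *WTAP* at 59.8 and 64.4 to *METTL14* at 3.37 and 2.71. In replicate 1 the lowest was *NSD1*, at 3.22 and 3.85 in the 2 libraries. Of the 22 genes, *EED* and *KMT2A* (9.09%) had a replicate 1 promoter peak, beside 8.68% of protein-coding genes at FPKM 1 or more in both libraries. The replicate 1 share was 35.7% for the 14 HIF and collagen hydroxylases and 5.88% for the 17 enzymes. In replicate 2, 10 of the 22 (45.5%), 5 of the 14 HIF and collagen hydroxylases (35.7%) and 2 of the 17 enzymes (11.8%) had one, beside 28.9% of the dioxygenases and 20.2% of protein-coding genes at FPKM 1 or more. Of 6 other 2-oxoglutarate oxygenases, 3 were at FPKM 1 or more in both libraries. The highest was *RIOX1* (11.97 and 11.4) in replicate 1 and *RIOX2* (10.8 and 12.3) in replicate 2, and *KDM4E* and *PHYHD1* were listed at 0. None of the 6 had a replicate 1 promoter peak, while 1 had one in replicate 2. Of 9 known HIF1 target genes, 7 had a replicate 1 promoter peak: *BNIP3*, *CA9*, *VEGFA*, *ANKRD37*, *PDK1*, *SLC2A1* and *PGK1*. In replicate 2, 7 of the 9 (77.8%) had one. All 9 were at FPKM 1 or more, from *PGK1* at 620 and 539 to *EGLN3* at 5.80 and 4.97.

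The proximal tubule label was checked against markers. Of 12 proximal tubule markers, 3 were at FPKM 1 or more in both libraries, with a summed FPKM of 75.2 and 69.3, led by *GGT1* at 62.3 and 58.5. *LRP2*, *HNF4A*, *SLC22A6* and *SLC22A8*, which define the proximal tubule, were listed at 0, and *CUBN*, *AQP1* and *SLC34A1* were below 0.1. Of 6 renal epithelial markers, 4 were present (summed FPKM 374 and 370), led by *KRT8* at 166 and 162, with *PAX8* at 121 and 114, and *PAX2* (0.287 and 0.359) and *CDH1* (0.211 and 0.379) were below FPKM 1. The 4 markers of the loop of Henle and distal tubule summed to 0.0195 and 0.0268, with *UMOD*, *SLC12A1* and *AQP2* at 0. The 7 endothelial, blood and fibroblast markers summed to 39.8 and 39.8, nearly all from *COL1A1* at 38.7 and 38.7, with *PECAM1*, *PTPRC* and *HBB* at 0. The cells thus carried most of the renal epithelial markers and lacked most markers of the differentiated proximal tubule.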

How the data were processed

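The authors deposited peak positions for each ChIP-seq replicate (Bowtie2 on hg19, MACS2), without scores or depth, and StringTie 1.3.3 tables for each RNA-seq library on GENCODE 27, with FPKM, TPM and coverage per transcript. FPKM, as deposited, was summed by Ensembl identifier. The methods of the study name hg19 for all data, but the expression tables have GRCh38 coordinates: only 4.48% of 55859 genes in both annotations start within 1000 bp of the GRCh37 start. Tables were therefore joined by Ensembl identifier. Peaks were placed on GRCh37 with GENCODE 44, and motif counts used peaks on assembled nuclear chromosomes. Log2 values used a pseudocount of 1. No test was run, since all samples share 1 condition.

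The members and lists were chosen with earlier results of these data known. Genes given in full were those with a replicate 1 promoter peak, the 5 highest and 5 lowest in mean FPKM, the 5 with the largest difference between libraries, those whose leading transcript holds under 40% or differs between libraries, and, in other lists, genes with a replicate 1 promoter peak and the highest and lowest, which for 1 list are not reported here. Code was tested on simulated data. Tools were Python 3.11.15, numpy 2.4.6, pandas 2.3.3, pysam 0.24.0, matplotlib 3.10.9 and samtools 1.23.1.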

Additional observations from a re-analysis of the deposited data

How the results depend on the processing

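Of 47 alternatives over 7 results, 27 stayed close to the reported value, within 1 SD between libraries for the median FPKM and within 1.5 times for counts; for the difference between libraries, which has no SD, any other value was taken as a shift. The median FPKM of the genes, 8.09, was 22.4 as TPM, 4.31 with the largest transcript of each gene only, 6.40 with protein-coding transcripts only, and 9.08 over genes at mean FPKM 1 or more; leaving out each library gave 7.99 to 8.39. The count at FPKM 1 or more was 41 to 42 with single libraries, and lowest, 30, at FPKM 5. The median size of the log2 difference between libraries, 0.16, was 0.19 with a pseudocount of 0.1, 0.155 with no filter on low values, 0.18 as TPM and 0.22 with the largest transcript only. Genes with a promoter peak in ChIP replicate 2, 13, numbered 27 within 10 kb, 6 at the first start of the gene, and 0 among peaks with no exon bases. Genes with one in each replicate, 6, numbered 13 within 10 kb, 0 with replicate 2 peaks without exon bases, and 3 where the peaks overlap; leaving out each replicate gave 11 to 13. The core near the centre, in 9 genes, was in 3.5 on average in the control windows. Of 3 alternatives chosen after seeing the data, peaks without exon bases left 2 genes in replicate 1, peaks with under 90% exon bases left 4 in replicate 2, and peaks within 1 kb of each other left 5 in both replicates. The cause of these shifts was not tested. No paired analysis was possible because the groups are different assays. The depth behind the peaks is unknown, and without untreated libraries no change with treatment can be measured.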
